A study of Rattus norvegicus with 72 samples.

Results

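In all, 10 genes of the chemokine, interleukin 1 and NF-kB feedback system were followed in rat liver before and after partial hepatectomy (PHx), an operation that takes out part of the organ and is followed by regrowth of what is left. The chemokine genes are Cxcl1, Cxcl2 and Ccl2, and the interleukin 1 genes are Il1a, Il1b and Il1rn. The others are the cytokine gene Tnf, the NF-kB feedback genes Nfkbia and Nfkbiz, and the adhesion gene Icam1. All 10 genes were chosen by name, with earlier results of these data known, so counts of called members are descriptive. Each of the 10 has 1 singly annotated probe set among the 14506 genes measured. RNA from 36 rats was hybridised to 72 Affymetrix Rat Gene 1.0 ST arrays, a control array from the liver taken at surgery and a PHx array from the remnant of the same rat 1, 6 or 24 h later.

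The rats were fed chronic ethanol (EtOH), a high fat diet (HF) or a carbohydrate control diet (CHO), with 4 rats per diet and time. The sources used here do not give the strain, age or sex of the rats or how long they were fed. Groups follow the titles and diet tags, which disagree for the PHx array of EtOH 24 h replicate 4, grouped here by its title. The labels of tissue source exchange HF and CHO, so that under them each EtOH minus CHO difference is an EtOH minus HF difference, each EtOH minus HF difference is an EtOH minus CHO difference, and the sign of each HF minus CHO difference turns. No sham operation was analysed here, so removal of tissue, anaesthesia and the hour of sampling cannot be told apart. Outlier marks sit on 9 arrays from 9 rats, and those rats were left out of the changes, which leaves 4, 4 and 3 EtOH rats, 3, 2 and 3 HF rats and 3, 3 and 2 CHO rats at 1, 6 and 24 h. Array medians lay between 4.54 and 4.77 on the log2 scale. The files hold no detection calls. Hepatocyte markers were bright in the control livers (mean of 12 genes 12.11 to 12.34 over 27 arrays), whereas the mean of 15 neutrophil markers (3.72 to 3.97) was below every array median.

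NF-kB proteins are transcription factors that rest in the cytoplasm bound to inhibitors of the I-kappa-B family. Receptors for interleukin 1 and TNF activate kinases that mark the inhibitors for destruction, and the freed factors switch on chemokines, adhesion molecules and the genes of their own inhibitors, which close the loop. In liver, Kupffer cells are a known source of TNF and interleukin 1, hepatocytes and endothelium answer with chemokines, and this signalling belongs to the early phase of regeneration.

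Promoters of the members are shown because NF-kB, which binds the kB motif, is the factor that links the members. RefSeq promoters (GRCr8) were given for 9 of the 10 members, the exception being Ccl2. The kB motif was searched on both strands in the 250 bases before the start. It was present in 4 of 9 members (44.4%), Cxcl1, Cxcl2, Nfkbia and Nfkbiz, and in 6.33% of 33469 promoters of that length. The last 120 bases before the start of these 4 are printed in the gene's direction, with letters inside a kB match on either strand in capitals, also where matches overlap. They come from chr14:17479322-17479441 for Cxcl1, chr14:17467256-17467375 for Cxcl2 and chr6:78597073-78597192 for Nfkbia, all on the minus strand, and from chr11:58251601-58251720 on the plus strand for Nfkbiz.
Cxcl1: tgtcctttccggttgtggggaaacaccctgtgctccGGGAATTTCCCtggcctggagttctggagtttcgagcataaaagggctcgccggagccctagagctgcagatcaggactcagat
Cxcl2: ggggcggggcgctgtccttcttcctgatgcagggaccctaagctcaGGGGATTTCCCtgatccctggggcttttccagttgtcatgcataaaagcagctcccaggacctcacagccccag
Nfkbia: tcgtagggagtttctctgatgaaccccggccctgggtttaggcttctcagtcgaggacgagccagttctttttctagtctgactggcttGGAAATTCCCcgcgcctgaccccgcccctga
Nfkbiz: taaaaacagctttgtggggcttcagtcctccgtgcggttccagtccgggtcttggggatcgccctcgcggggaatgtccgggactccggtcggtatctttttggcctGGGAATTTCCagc
The letters TATAAA, searched on both strands and found in 12.9% of all promoters, occurred in 5 of 9 members (55.6%), Il1a, Il1b, Il1rn, Tnf and Icam1. TGANTCA, the AP-1 motif, occurred in 1 of 9 (11.1%), Il1a, against 6.34% of all. No member held both a kB and a TATAAA match. A match is a description of letters and was not tied to binding here.

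Within 1 h of surgery 5 of the 10 members rose: Cxcl1, Il1rn, Nfkbiz, Il1a and Nfkbia, by 2.28-fold to 4.34-fold. Each of the 5 was higher in the remnant than in the control liver of all 10 rats. Of all genes, 4.47% rose and 5.83% fell, and no member fell. Changes are log2 differences between remnant and control of the same rat, tested with limma and adjusted over all 14506 genes (Benjamini-Hochberg, threshold 0.05). Values for a time are the mean of the 3 diets with its standard error (SE).

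Cxcl1 encodes a chemokine that draws neutrophils. Its control level before the 1 h remnant was 5.84 at the lowest, 6.26 at the median and 7.50 at the highest of 10 rats, and its remnant level was 7.30, 8.41 and 10.03. The ranges overlap because the highest control, EtOH replicate 3, lies above the lowest remnant, CHO replicate 1. The change was 2.30, 1.89, 2.53 and 2.06 in the 4 EtOH rats, 1.23, 3.10 and 2.15 in the 3 HF rats, and 1.46, 2.16 and 2.39 in the 3 CHO rats. All diets span similar changes, and the widest spread is among the HF rats. The mean change was 2.12 (SE 0.16, 95% interval 1.78 to 2.45, limma adjusted p = 5.5e-10), or 4.34-fold.

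Il1rn encodes the interleukin 1 receptor antagonist, a natural blocker of the receptor. Control levels of 5.21 to 6.87 (median 6.36) stood against remnant levels of 7.59 to 8.78 (median 8.06), with no overlap. The change was 1.93 (SE 0.14, adjusted p = 1.76e-10), with 1.75 in EtOH, 2.07 in HF and 1.96 in CHO rats. Il1a encodes interleukin 1 alpha, a ligand of that receptor. Its control levels of 5.75 to 6.70 (median 6.29) and remnant levels of 6.80 to 8.23 (median 7.68) did not overlap, and the change was 1.43 (SE 0.10, adjusted p = 1.85e-10). The agonist Il1a and the antagonist Il1rn were thus both above their control range in every remnant at 1 h.

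Nfkbia encodes I-kappa-B alpha, the inhibitor that returns NF-kB to the cytoplasm. Its change was 1.09, 1.13, 1.16 and 0.92 in EtOH rats, 0.70, 1.33 and 2.04 in HF rats and 0.70, 0.57 and 2.11 in CHO rats. The EtOH rats lie close together, and HF replicate 4 and CHO replicate 4, the highest of their diets, have the lowest control levels of the cohort (7.51 and 7.47). Remnant levels of 8.89 to 9.58 lay above all control levels (7.47 to 8.77), and the mean change was 1.19 (SE 0.14, limma adjusted p = 7.32e-07). In the CHO rats alone the change of 1.13 became 0.64 without replicate 4 (adjusted p = 0.364).

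Nfkbiz encodes I-kappa-B zeta, a nuclear relative that acts as a cofactor for delayed target genes. It changed by 1.34, 1.52, 1.96 and 1.78 in EtOH rats, 1.09, 1.32 and 2.27 in HF rats and 0.88, 1.18 and 1.97 in CHO rats. Remnant levels (7.42 to 8.57) again lay above all control levels (6.04 to 7.06). The mean change was 1.52 (SE 0.16, adjusted p = 9.67e-08).

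The other members stayed short of the threshold at 1 h. Cxcl2, a further neutrophil chemokine, changed by 0.26 (adjusted p = 0.0809), Il1b, the gene of interleukin 1 beta, by 0.24 (0.0837 as adjusted p) and Icam1, a docking molecule for leukocyte integrins, by 0.21 (adjusted p = 0.186). Cxcl2 and Il1b were nonetheless higher in the remnant of all 10 rats. With array weights both were called (limma adjusted p = 0.0229 and 0.0363), and Cxcl2 also without the animal block (adjusted p = 0.0446). Ccl2, a chemokine that draws monocytes, changed by 0.20 (SE 0.16) and Tnf by -0.07 (SE 0.099). Cxcl2, with a mean of 3.62 over all arrays, is brighter than 19.8% of genes, and Tnf (4.67) and Ccl2 (4.75) lie near the array medians. Within each diet the same 5 members passed at 1 h, against 2.94% of genes in EtOH, 2.12% in HF and 1.85% in CHO rats. That count fell to 3 in HF rats without replicate 4, and to 3 in CHO rats without replicate 4.

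**Figure D1:**
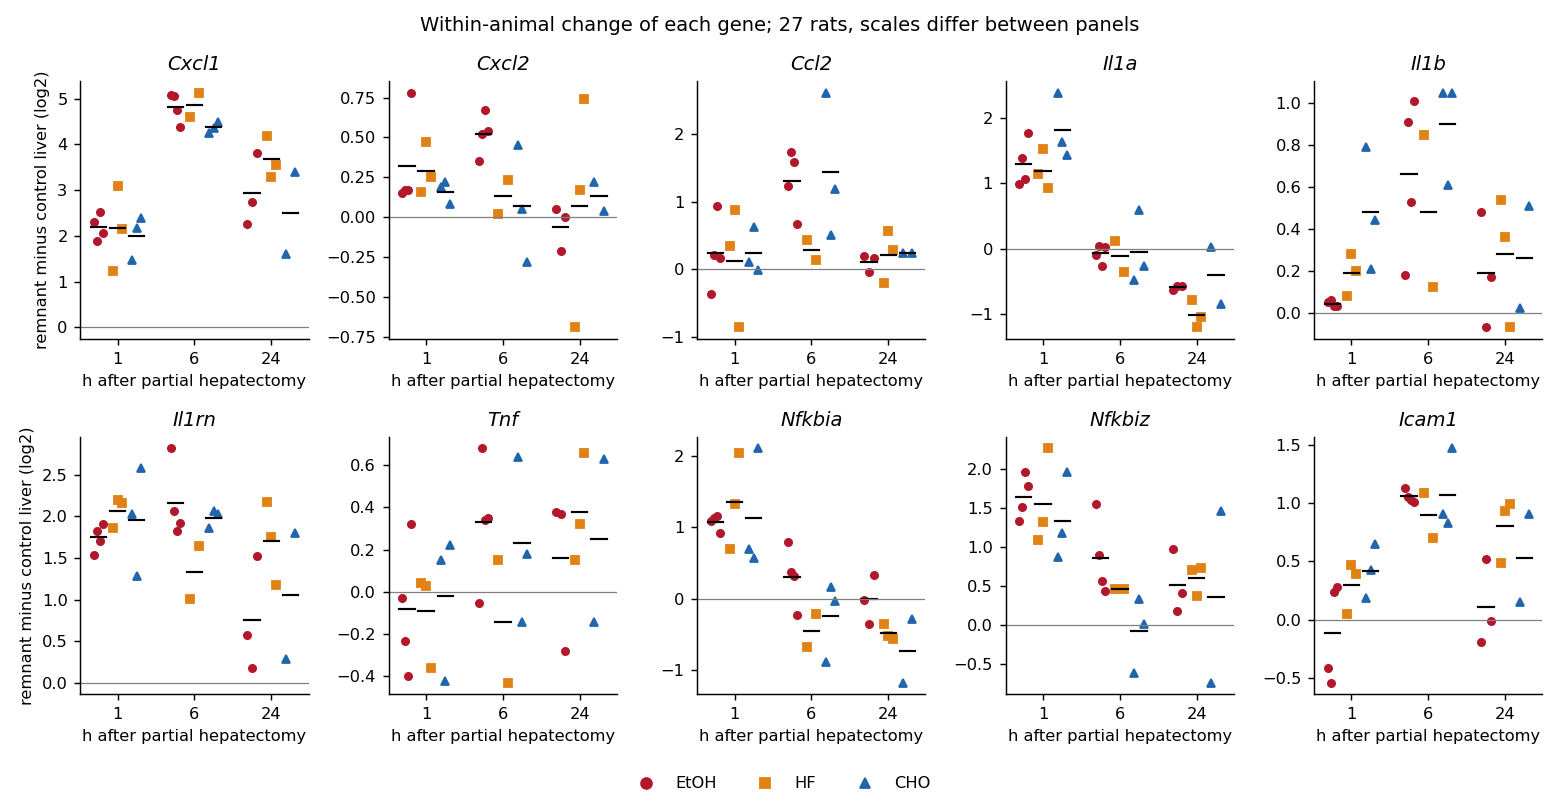
Within-animal change (log2, remnant minus control liver) of each member at 1, 6 and 24 h; points are rats coloured by diet and black lines are diet means. Cxcl1 lies above 0 in every rat, while Il1a is above 0 in all 10 rats at 1 h and below 0 in 7 of 8 rats at 24 h.

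By 6 h the set of raised members had shifted. Cxcl1, Il1rn, Ccl2, Icam1 and Il1b rose, whereas Il1a and Nfkbia were near their control levels. Of all genes 20.0% rose and 19.9% fell at 6 h, against 5 of 10 members that rose and 0 that fell. Cxcl1 reached 25.7-fold.

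For Cxcl1 at 6 h, control levels of 5.72 to 6.46 (median 6.25, 9 rats) faced remnant levels of 10.62 to 11.18 (median 10.81). All 9 remnants lie within a narrow band far above the controls. The changes were 5.08, 5.06, 4.76 and 4.39 in EtOH rats, 4.59 and 5.13 in HF rats and 4.26, 4.35 and 4.50 in CHO rats. The mean change was 4.68 (SE 0.18, 95% interval 4.32 to 5.05, limma adjusted p = 4.94e-17), and it lay between 4.59 and 4.77 without any single rat.

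Ccl2 rose by 1.01 (SE 0.17, adjusted p = 2.42e-05), from controls of 4.21 to 4.81 to remnants of 4.93 to 6.82, with no overlap. Its changes were 1.23, 1.74, 1.59 and 0.67 in EtOH rats, 0.43 and 0.13 in HF rats and 2.61, 0.50 and 1.18 in CHO rats. Both HF rats are below every EtOH and CHO rat of the fit, and the 2 HF rats left out for an outlier mark read 0.25 and 0.36. The CHO rat left out for such a mark read 0.33, so with marked rats counted HF and CHO changes overlap. Within the scan days that could be fitted the change was 2.05 (scan day 1, EtOH and CHO rats) and 0.64 (scan day 2). The CHO value of 1.43 became 0.84 without CHO replicate 2 (adjusted p = 0.0416). In that list of chemokine ligands, Cxcl2 changed by 0.24 (SE 0.10, adjusted p = 0.063) in the mean of diets, and rose in EtOH rats by 0.52 (adjusted p = 0.00554), with 0.35, 0.52, 0.67 and 0.54 in the 4 rats. With all outlier-marked rats included the EtOH call was lost at the same value of 0.52, while the mean of diets was called (0.35, limma adjusted p = 0.0154). That mean was also called with array weights (adjusted p = 0.0252), without the animal block (adjusted p = 0.033) and without CHO replicate 4 (0.30, adjusted p = 0.0258).

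Icam1 rose by 1.01 (SE 0.10, adjusted p = 3.68e-09), from 6.52 to 7.15 in controls to 7.39 to 8.18 in remnants. Every remnant was above every control. The EtOH rats agreed most closely, with changes of 1.13, 1.05, 1.03 and 1.01. Il1b rose by 0.68 (SE 0.094, adjusted p = 8.76e-07), with remnants of 5.63 to 6.54 that overlapped controls of 4.95 to 5.69. Its change ranged from 0.12 to 1.05 and was above 0 in 9 of 9 rats.

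Il1rn stayed high, with a change of 1.82 (SE 0.15, adjusted p = 1.05e-10). The EtOH remnants held 8.52, 8.47, 8.49 and 9.08, the CHO remnants 7.96, 8.39 and 8.05, and the HF remnants 6.91 and 7.0. These 2 HF remnants are the lowest, but the HF rats left out for an outlier mark read 7.10 and 9.84, the latter above every EtOH and CHO remnant. Il1a changed by -0.08 (SE 0.11, adjusted p = 0.669), Nfkbia by -0.13 (SE 0.15, adjusted p = 0.573) and Tnf by 0.14 (SE 0.11, adjusted p = 0.365). Nfkbiz changed by 0.41 (SE 0.17, adjusted p = 0.0539), a value that passed the threshold under 5 of 9 other settings and in 3 of 9 fits without a rat.

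Diet by diet at 6 h, 7 members passed in EtOH rats, 3 in HF rats and 5 in CHO rats, against 34.3%, 19.3% and 29.2% of all genes. Cxcl1, Il1rn and Icam1 passed in each diet. The HF group has 2 rats, and its SE for Ccl2 was 0.36 against 0.25 in EtOH rats. Nfkbiz passed in EtOH rats (0.86, adjusted p = 0.00605), and that call was lost without EtOH replicate 1 (0.64). Its control levels in this cohort were lower in EtOH rats (5.72 to 6.58) than in CHO rats (6.77 to 7.29). The remnant levels overlapped (7.02 to 7.27 in EtOH and 6.68 to 7.12 in CHO rats). Icam1 in HF rats lost its call without HF replicate 3 (0.70), and Il1rn in HF rats without HF replicate 4 (1.01).

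**Figure D2:**
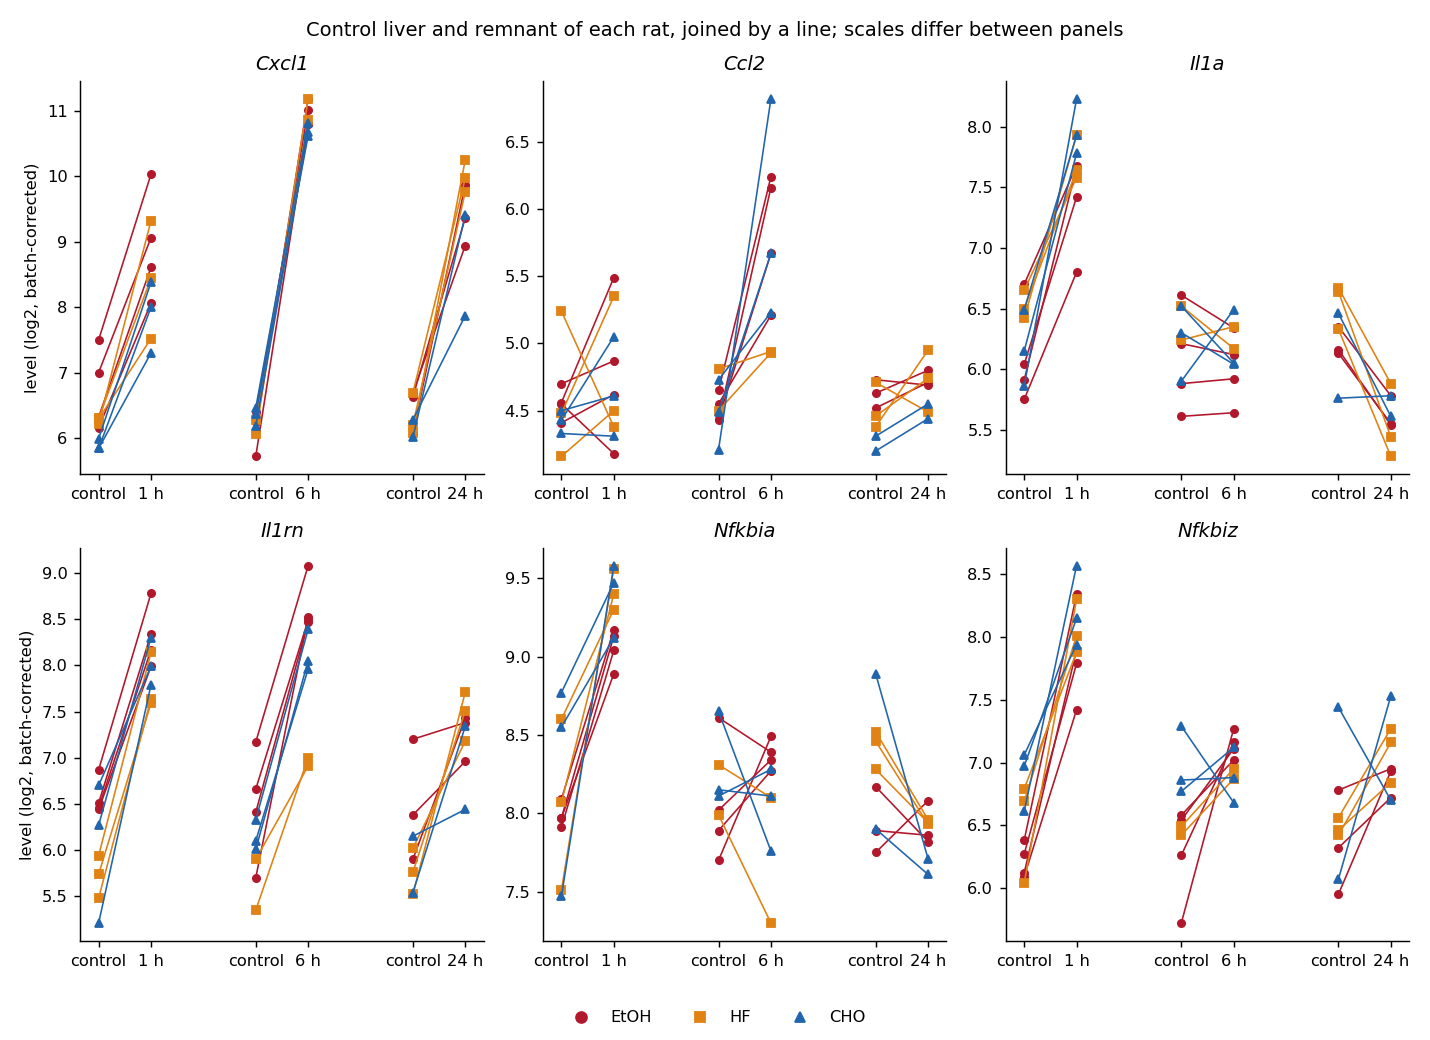
Control and remnant level (log2, batch-corrected) of 6 members, joined for each rat and coloured by diet, at 1, 6 and 24 h. Cxcl1 remnants at 6 h lie between 10.62 and 11.18, and the lines of Il1a run up at 1 h and down at 24 h.

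At 24 h Cxcl1 and Il1rn were still raised, and Icam1 and Nfkbiz were modestly higher. Il1a had fallen below its control level, and so had Nfkbia in the mean of diets, but not in every EtOH rat. That makes 4 of 10 members that rose and 2 that fell, beside 16.6% and 17.4% of all genes. Cxcl1 stood 8.19-fold and Il1rn 2.25-fold over control.

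Cxcl1 remnants spread widely at 24 h, from 7.87 to 10.25 (median 9.59), with controls of 6.01 to 6.69. The changes were 2.25, 2.73 and 3.81 in EtOH rats, 4.19, 3.28 and 3.56 in HF rats and 1.60 and 3.40 in CHO rats. Every remnant was above every control, and CHO replicate 2 was the lowest. The mean change was 3.03 (SE 0.18, adjusted p = 4.77e-13). In the CHO rats the change of 2.50 became 1.60 without replicate 4 (adjusted p = 0.0242).

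Il1rn rose by 1.17 (SE 0.16, limma adjusted p = 9.83e-07), with changes of 0.58, 0.18 and 1.53 in EtOH rats, 2.18, 1.75 and 1.17 in HF rats and 0.29 and 1.80 in CHO rats. It was higher in 8 of 8 remnants, by little in EtOH replicate 2 and CHO replicate 2. The EtOH value of 0.76 was no longer called without replicate 1 (0.85) and became 0.38 without replicate 3 (adjusted p = 0.457). The CHO value of 1.05 became 0.29 without replicate 4 (adjusted p = 0.724) and 1.80 without replicate 2.

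Il1a fell by 0.67 (SE 0.12, adjusted p = 4.5e-05). The changes were -0.63, -0.57 and -0.57 in EtOH rats, -0.79, -1.20 and -1.05 in HF rats and 0.03 and -0.85 in CHO rats. Only CHO replicate 2 did not read lower than its control. In EtOH rats alone the fall of 0.59 was called with 3 rats (adjusted p = 0.0354). The call was lost when any of the 3 was left out, at values of -0.57, -0.60 and -0.60.

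Nfkbia fell by 0.41 (SE 0.15, limma adjusted p = 0.0416). Its changes were -0.02, -0.35 and 0.33 in EtOH rats and -0.35, -0.53 and -0.56 in HF rats. The CHO rats read -1.18 and -0.29. That call was lost in 6 of 8 fits that left out a rat, with a value of -0.26 without CHO replicate 2. It was also lost with all marked rats included (adjusted p = 0.0791) and with array weights (adjusted p = 0.157). Nfkbiz rose by 0.50 (SE 0.18, adjusted p = 0.0297), a value that became 0.13 without CHO replicate 4, 0.86 without CHO replicate 2 and 0.13 within scan day 4. The call for Nfkbiz was also lost without EtOH replicate 1, HF replicate 1 or HF replicate 4. Icam1 rose by 0.48 (SE 0.11, adjusted p = 0.000644), with 0.34 within scan day 4 (adjusted p = 0.157). The falls and rises of Nfkbia and Nfkbiz at 24 h are thus close to the threshold, unlike those at 1 h.

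Il1b (0.24, adjusted p = 0.0553), Tnf (0.26, adjusted p = 0.077), Ccl2 (0.19, adjusted p = 0.481) and Cxcl2 (0.05, adjusted p = 0.78) did not pass at 24 h. Tnf, the cytokine at the head of the cascade, passed in none of the 3 mean responses as reported. At 24 h it was called after quantile normalisation (0.29, adjusted p = 0.0398), without EtOH replicate 3 (0.33, adjusted p = 0.0273) and without CHO replicate 2 (0.39, adjusted p = 0.0215). At 6 h it was called within scan day 1 (0.48, adjusted p = 0.0116). Its remnant levels ran from 4.26 to 5.28 over all times and its controls from 4.12 to 4.97. By diet, 3 members passed in EtOH rats, 4 in HF rats and 2 in CHO rats, against 14.2%, 24.9% and 16.7% of genes. The EtOH count was 1 or 2 when any of its rats was left out, and the CHO count was 1 without replicate 4 and 4 without replicate 2.

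**Figure D3:**
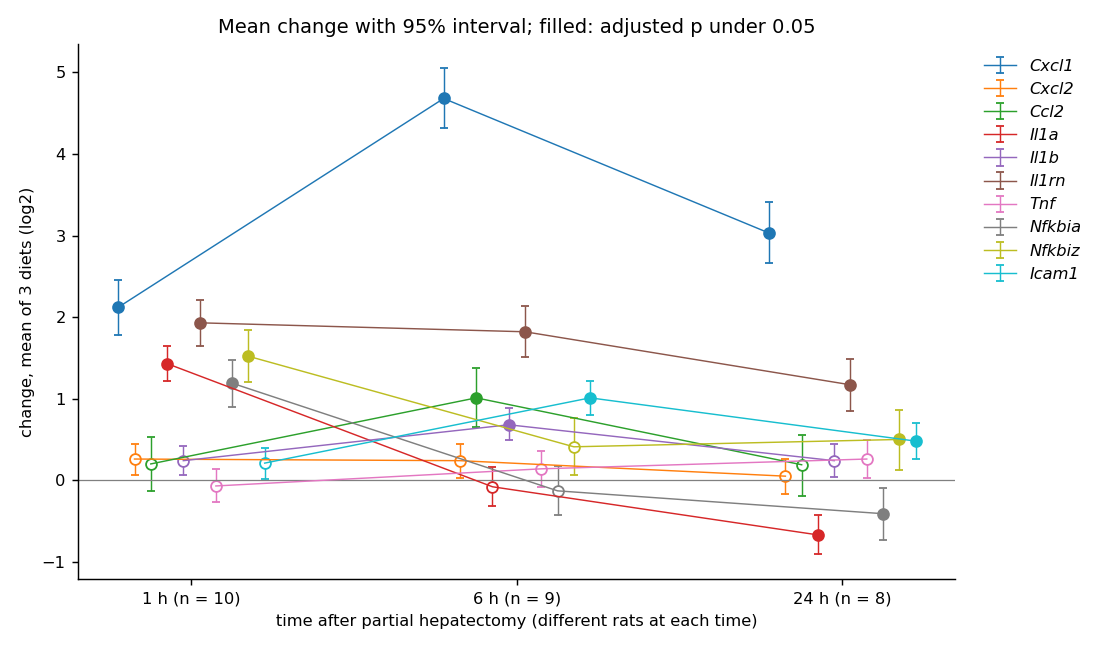
Mean change of the 3 diets (log2) with its 95% interval for each member at 1, 6 and 24 h; filled points have an adjusted p under 0.05. Cxcl1 peaks at 4.68 at 6 h, Il1a and Nfkbia are highest at 1 h (1.43 and 1.19), and Tnf and Cxcl2 have no filled point.

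The members followed different courses, shown by tests of the change at one time against the change at another. Between 1 h and 6 h, 4 of 10 members had a higher change (background 17.7% of genes) and 3 a lower one (14.9%). Cxcl1 gained 2.57 (SE 0.24, limma adjusted p = 3.58e-09), Ccl2 0.81 (adjusted p = 0.00863), Icam1 0.80 (adjusted p = 3.59e-05) and Il1b 0.44 (adjusted p = 0.00786). Without HF 6 h replicate 3 the Il1b difference was 0.32 and was not called. Il1a differed by -1.51 (adjusted p = 1.36e-08), Nfkbia by -1.31 (adjusted p = 8.15e-06) and Nfkbiz by -1.10 (adjusted p = 0.000371). For Il1rn the difference was -0.10 (95% interval -0.53 to 0.32).

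From 6 h to 24 h the change was lower in 6 of 10 members and higher in 0, against 14.4% and 14.6% of genes. Cxcl1 differed by -1.65 (SE 0.26, adjusted p = 1.34e-05), Ccl2 by -0.82 (adjusted p = 0.0141), Il1rn by -0.65 (adjusted p = 0.0242), Il1a by -0.59 (adjusted p = 0.0063), Icam1 by -0.53 (adjusted p = 0.00668) and Il1b by -0.44 (adjusted p = 0.0157). The count was 3 without CHO 24 h replicate 2, and the Il1rn difference was then -0.40 (adjusted p = 0.195). Il1rn was also not called without EtOH 24 h replicate 2, HF 6 h replicate 4 or HF 24 h replicate 4, nor Il1b without HF 6 h replicate 3. Each time is a separate cohort of rats scanned on its own days, so time, cohort and scan day cannot be told apart in these differences.

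No member's change after surgery differed between diets past the threshold. Of the 9 comparisons of changes between diets (limma, adjusted over all genes), 0 of 10 members passed in each. At 1 h the EtOH minus CHO, EtOH minus HF and HF minus CHO comparisons called 0.0% of genes. At 6 h they called 1.88%, 2.05% and 0.0%, and at 24 h 2.94%, 5.0% and 0.0%. The unadjusted p was under 0.05 for 3, 0 and 1 of the 10 members at 1 h, in the same order. The member counts were 1, 2 and 1 at 6 h and 0, 2 and 1 at 24 h. Among all 14506 genes the counts were 525, 476 and 449 at 1 h and 1695, 1788 and 771 at 6 h. At 24 h they were 2145, 2498 and 570.

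The intervals leave room for sizeable differences. For Cxcl1 at 6 h EtOH minus CHO was 0.45 (95% interval -0.35 to 1.25) and EtOH minus HF was -0.04 (-0.95 to 0.87). For Nfkbiz at 6 h EtOH minus CHO was 0.94 (0.18 to 1.71, limma adjusted p = 0.274). For Ccl2 at 6 h EtOH minus HF was 1.02 (0.13 to 1.92, adjusted p = 0.303) and HF minus CHO was -1.15 (-2.10 to -0.21, adjusted p = 0.814). At 24 h Icam1 had -0.70 for EtOH minus HF (-1.19 to -0.21, adjusted p = 0.097), and Il1rn -0.94 (-1.67 to -0.20, adjusted p = 0.148). Icam1 was called in that comparison without EtOH replicate 2 (-0.90), and Il1rn without EtOH replicate 3 (-1.32). Within scan day 1, which leaves 1 residual degree of freedom and holds no HF rat, EtOH minus CHO at 6 h was called for Ccl2 (-1.13), Nfkbia (1.47) and Nfkbiz (1.83).

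Before surgery 2 members differed between diets past the threshold. This comparison rests on more arrays per diet than the comparisons of changes, so calls here and above differ in precision. Control livers of EtOH rats held more Il1rn than those of HF rats and less Nfkbiz than those of CHO rats. These values come from 29 control arrays without an outlier mark (12 EtOH, 9 HF and 8 CHO) in a limma fit with the scan day as a block. EtOH minus CHO passed for 1 of 10 members (11.8% of genes), EtOH minus HF for 1 (13.5%) and HF minus CHO for 0 (0.165%), so the counts of members lie at or below the background.

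Il1rn in control livers ranged from 5.70 to 7.20 in EtOH (median 6.45), from 5.35 to 6.02 in HF (median 5.76) and from 5.21 to 6.70 in CHO rats (median 6.12). The EtOH and HF ranges overlap at their ends. EtOH minus HF was 0.80 (SE 0.17, adjusted p = 0.00144), or 1.74-fold, and 0.83, 0.79 and 0.79 within the 1, 6 and 24 h cohorts, where it was not called (adjusted p = 0.169, 0.137 and 0.232). EtOH minus CHO was 0.43 (SE 0.19, adjusted p = 0.148), and 0.63 and called with a block on cohort and replicate number (adjusted p = 0.00902). In the same livers 10 of 19 measured markers of Kupffer cells and macrophages were higher in EtOH than in HF rats and 7 of 19 higher than in CHO rats, none lower, among them Cd5l (0.97 and 0.94) and Marco (1.15 and 1.00), a secreted protein and a scavenger receptor of macrophages. The mean of the list was 7.14 to 7.88 in EtOH, 6.84 to 7.54 in HF and 6.98 to 7.54 in CHO livers. Its part in the Il1rn difference was not tested, and in whole tissue more cells of a type and more RNA per cell cannot be told apart.

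Nfkbiz in control livers ranged from 5.72 to 6.78 in EtOH (median 6.26), from 6.04 to 6.79 in HF (median 6.49) and from 6.07 to 7.44 in CHO rats (median 6.92). CHO livers reach highest, and the ranges overlap. EtOH minus CHO was -0.71 (SE 0.14, adjusted p = 0.00114), with -0.79, -0.76 and -0.55 within the 1, 6 and 24 h cohorts (adjusted p = 0.0397, 0.132 and 0.616). Nfkbia pointed the same way without passing (-0.38, adjusted p = 0.138), as did Il1a for EtOH minus HF (-0.37, adjusted p = 0.0586). Cxcl1, the member with the strongest surgical change, differed by 0.27 from CHO (95% interval -0.10 to 0.64) and by 0.12 from HF (-0.22 to 0.45).

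**Figure D4:**
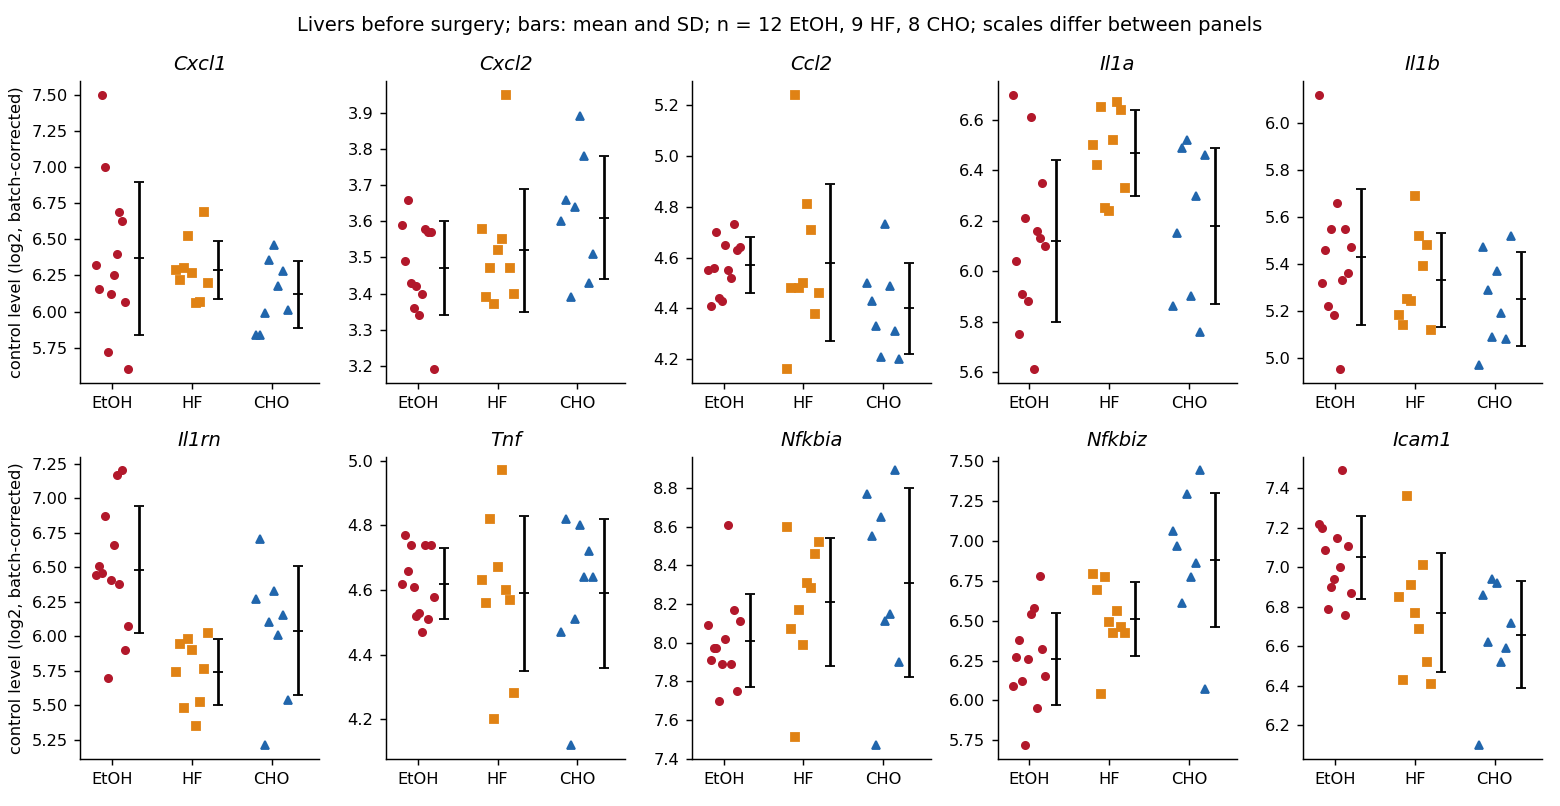
Level (log2, batch-corrected) of each member in livers taken at surgery, by diet; points are rats and bars are means with SD (12 EtOH, 9 HF and 8 CHO rats). EtOH livers have the highest Il1rn (median 6.45) and the lowest Nfkbiz (median 6.26).

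Other genes of the pathway were grouped in lists by function. Their counts stand beside 4.47% of all genes that rose and 5.83% that fell at 1 h, 20.0% and 19.9% at 6 h, and 16.6% and 17.4% at 24 h. Among 10 measured feedback inhibitors other than the members, 5 rose and 0 fell at 1 h (median change 0.13, all genes -0.014), led by Zfp36 (1.14, adjusted p = 2.09e-06), which destabilises cytokine mRNAs, and Zc3h12a (0.55), an RNase that cuts them. At 6 h 4 rose and 2 fell (median 0.07), with Zc3h12a at 0.90 and Bcl3, an atypical I-kappa-B protein, at 0.59. At 24 h 1 rose and 1 fell. Zfp36 also had the changes most like those of Nfkbia and Nfkbiz over the 27 rats, with root mean square differences of 0.38 and 0.54 beside 0.88 and 1.14 for the members' own changes.

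Of 11 measured NF-kB subunits and kinases, 2 rose and 1 fell at 1 h, 6 rose and 1 fell at 6 h (median 0.29), and 1 rose and 1 fell at 24 h. Nfkb2, the precursor of the p52 subunit, rose by 0.89 at 1 h (adjusted p = 2.02e-05). Chuk (0.64) and Ikbkb (0.47), the catalytic subunits of the I-kappa-B kinase, rose at 6 h.

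The interleukin 1 list holds 22 measured receptors, adaptors and relatives. At 1 h 1 rose and 2 fell, 10 rose and 4 fell at 6 h (median 0.11), and 8 rose and 2 fell at 24 h (median 0.05). Il1r1, the signalling receptor, rose at all 3 times, by 0.58, 2.17 and 1.16. Irak3, a brake on the receptor's signal, rose by 2.00 at 6 h and 1.21 at 24 h, and the kinase Irak4 rose by 1.10 at 6 h. Sigirr, an inhibitory member of the receptor family, fell by 0.84 at 6 h and rose by 0.37 at 24 h. The receptor and Irak3 thus rose together at 6 h, when Il1rn was also raised and Sigirr was lower. At 24 h the Irak3 change was lower in EtOH than in CHO rats, with a difference of -1.29 (adjusted p = 0.0266).

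The TNF list holds 11 measured receptors and adaptors. At 1 h 1 rose and 1 fell, at 6 h 4 rose and 2 fell (median 0.17), and at 24 h 3 rose and 0 fell. The 2 that fell at 6 h are near the 19.9% of all genes. Tnfrsf1a, the main TNF receptor, rose by 1.21 at 6 h and 0.88 at 24 h. Tnfrsf1b, the receptor found mostly on immune cells, was higher in EtOH control livers by 1.05 against CHO (adjusted p = 7.28e-07) and 0.78 against HF (adjusted p = 8.93e-06). Its change at 6 h was lower in EtOH rats, with differences of -1.31 against CHO and -1.37 against HF (adjusted p = 0.00304 and 0.00697).

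Of 30 other chemokines measured, 4 rose and 1 fell at 1 h, 3 rose and 5 fell at 6 h, and 0 rose and 5 fell at 24 h, with list medians of 0.08, 0.01 and -0.08. At 6 and 24 h these counts lie below the shares of all genes in both directions. Cxcl10, an interferon-induced T cell attractant, rose by 1.28 at 1 h. Ccl3 rose by 1.19 at 6 h, and it is a macrophage product that draws leukocytes. Ccl3 also had the changes most like those of Ccl2 (root mean square difference 0.37). Cxcl12, the ligand of Cxcr4, fell by 0.43, 2.01 and 1.11 at 1, 6 and 24 h, and Cxcl11, a ligand of Cxcr3 and Ackr3, fell by 1.60 at 6 h.

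Of 18 chemokine receptors, 1 rose at 1 h, 6 at 6 h and 4 at 24 h, and 2 fell at 24 h. Ackr3, a scavenger of Cxcl12, rose by 1.36, 1.21 and 0.60, and Cxcr4 rose by 0.93 at 6 h. Cxcr2, the receptor for Cxcl1 and Cxcl2 on neutrophils, rose by 0.51 at 6 h (adjusted p = 2.34e-05). Among 11 adhesion genes, 1 rose at 1 h (Vcam1, 0.58), 4 at 6 h and 2 at 24 h, and none fell. Itgam (0.30) and Itgb2 (0.31), which together form a leukocyte integrin that binds Icam1, rose at 6 h.

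**Figure D5:**
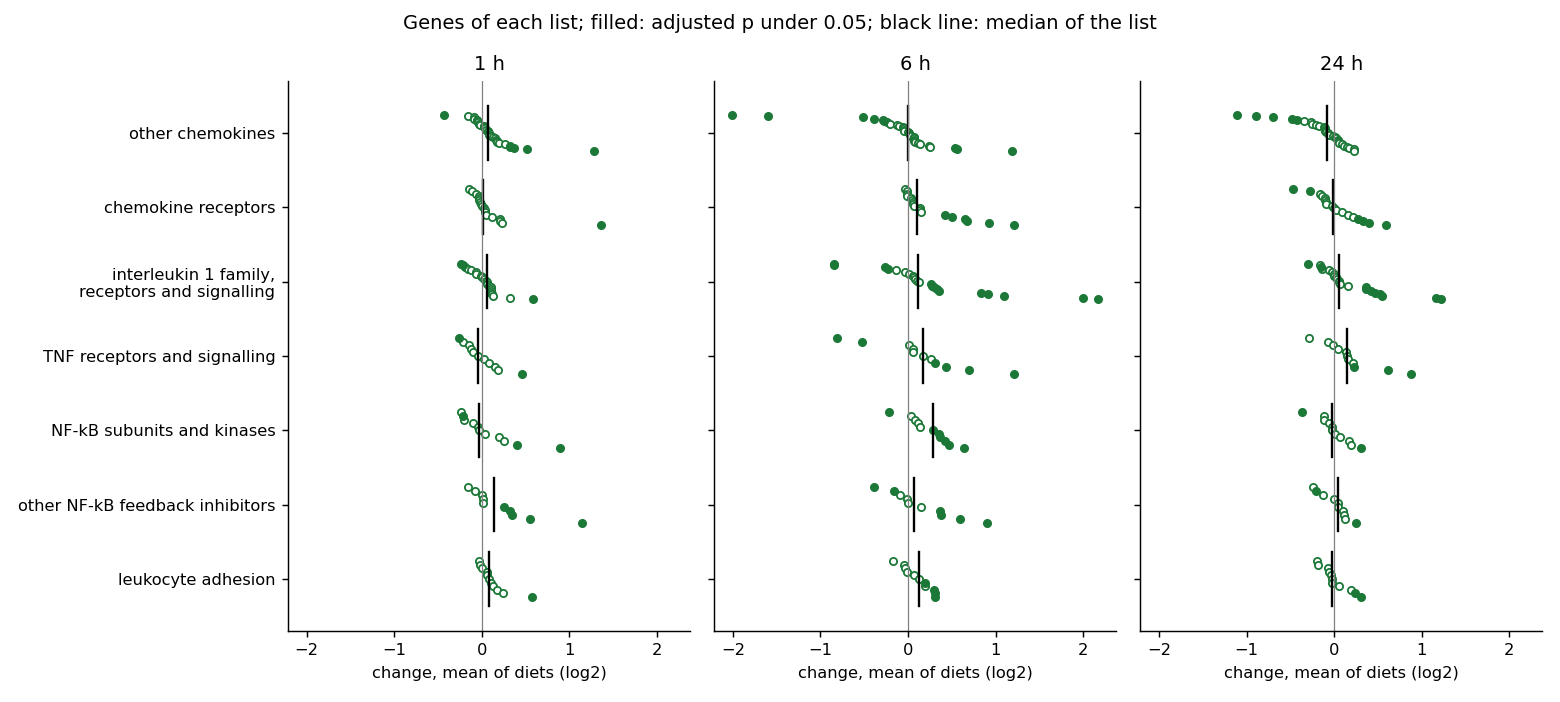
Mean change of the 3 diets (log2) for each measured gene of 7 lists at 1, 6 and 24 h; filled points have an adjusted p under 0.05 and black lines are list medians. Il1r1 (2.17) and Irak3 (2.00) are the rightmost points at 6 h, and Cxcl12 (-2.01) is the leftmost.

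Markers of cell types present in liver were counted in the same way, beside 4.47%, 20.0% and 16.6% of all genes that rose and 5.83%, 19.9% and 17.4% that fell at 1, 6 and 24 h. Of 15 neutrophil markers 0 rose at 1 h, 6 at 6 h and 6 at 24 h, none fell, and the mean of the list in remnants was 3.95 to 4.24 at 6 h. S100a9 had a median level of 4.03 in controls and 4.72 in the 6 h remnants, and the granule genes Mpo and Elane stayed at 4.26 and 4.44 before and 4.23 and 4.55 at 6 h. Of 19 macrophage markers 11 rose at 1 h (largest 0.38, Ctss), 8 rose and 2 fell at 6 h, and 5 rose and 5 fell at 24 h. Endothelial markers rose for 3, 8 and 1 of 12 genes and fell for 0, 1 and 4. Hepatocyte markers passed for 0 of 12 at 1 h, rose for 2 and fell for 6 at 6 h, and rose for 1 and fell for 6 at 24 h. Stellate cell markers passed for 0 of 11 at 1 h, fell for 6 at 6 h and for 4 at 24 h, when 2 rose. T and NK cell markers rose for 2 of 13 at 1 h, fell for 1 at 6 h and for 2 at 24 h, and 0 of 4 B cell markers passed. The part of cell numbers in the member changes at 1, 6 and 24 h was not tested.

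Likeness over the 27 rats was measured as the root mean square difference in change, and only the nearest genes of members called in a mean response were sought. Il1rn was nearest to Junb, a subunit of AP-1, at 0.56 (its own changes have a root mean square of 1.80). Il1a was nearest to Bach1 and Zbtb10, both transcription factors, at 0.56 (own 1.01). Cxcl1 was nearest to Osmr, the receptor of oncostatin M, and Tubb6, a tubulin, at 1.41 (own 3.48). The measure depends on the size of a member's own changes, so it does not rank closeness between members. Icam1 was nearest to B4galt1, a galactosyltransferase, at 0.28 (own 0.74), and Il1b to Rbm8a, a splicing factor, at 0.29 (own 0.53).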

How the data were processed

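Per the submitters' processing notes, RMA in Affymetrix Expression Console was used, with no version given there. The authors deposited log2 values in 3 tables: a value table and a batch-corrected table of 72 arrays, and a table of 63 arrays without outliers. Per the file headers, the authors' batch correction was a mixed-effects ANOVA. The batch-corrected table, used here, was checked to equal the value table plus a constant per probe set and scan day (8 scan days, within 0.00015), so within-animal changes and scan-day-blocked contrasts do not depend on it. The highest correlation between 2 arrays was 0.9945. The genome build is not given in the sources used here.

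Of 29214 probe sets, 15310 map to 1 gene symbol in the platform annotation, 323 to several and 13581 are not listed. The probe set with the highest mean was kept per gene (14506 genes, 527 with more than 1). Changes of 27 rats were fitted with limma 3.58.1 (R 4.3.3; a mean per diet and time, 18 residual degrees of freedom) and control levels of 29 arrays with diet and scan day (19 residual degrees of freedom). Controls of CHO replicate 3 at 1 h and CHO replicate 1 at 6 h were left out of the latter because their columns in the table without outliers hold values of the PHx arrays. A call is a p under 0.05 after Benjamini-Hochberg adjustment across the 14506 genes. Intervals use limma's moderated degrees of freedom. The fits were tested on simulated data.

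Members and gene lists were chosen with earlier results of these data known. All members are named; of each other list, up to 3 called genes with the smallest p per comparison, and of marker lists up to 2, could be named, with the 3 nearest genes of each member. Labels call rats of a group biological replicates. The number of arrays limits the precision. Control and PHx arrays are paired by animal labels. Alternatives were the other deposited tables, quantile normalisation, all rats, array weights, a filter on dim genes, no animal block, replicate blocks, scan days and leaving out each rat. EtOH 24 h replicate 4 carries a high fat tag on its PHx array. That rat was not used in the changes, but its control array is among the EtOH arrays of the control fit. The 12 h time of the series text is not analysed here.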

Additional observations from a re-analysis of the deposited data

Results flagged for a closer look

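Flags for a value far from the rest of its group fell on 3 of 40 groups of 4 to 10 samples, a number near the 1 in 20 that chance gives. They are the Cxcl2 change of EtOH 1 h replicate 4 (0.78), the Cxcl2 control level of HF 24 h replicate 1 (3.95) and the Nfkbiz control level of HF 1 h replicate 4 (6.04).

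Changes that differed between times by their own limma test were, for 6 h minus 1 h, Cxcl1 2.57, Ccl2 0.81, Icam1 0.80, Il1b 0.44, Nfkbiz -1.10, Nfkbia -1.31 and Il1a -1.51. For 24 h minus 6 h they were Il1b -0.44, Icam1 -0.53, Il1a -0.59, Il1rn -0.65, Ccl2 -0.82 and Cxcl1 -1.65. Time, cohort and scan day cannot be told apart in these differences.

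In rats left out of the comparisons for an outlier mark, 10 member changes lay above every rat kept at that time and 11 below. HF 6 h replicate 2 had changes of 3.86 for Il1rn (highest kept rat 2.82), 2.11 for Il1b (1.05), 2.05 for Cxcl2 (0.67) and 0.98 for Tnf (0.68). All 4 are the highest of all 36 rats for their gene. HF 1 h replicate 3 had 3.86 for Cxcl1 (highest kept rat 3.10), 3.23 for Il1rn (2.58), 0.93 for Cxcl2 (0.78) and 0.91 for Il1b (0.79). EtOH 24 h replicate 4, whose PHx array carries a high fat tag, had 4.33 for Cxcl1 (4.19). CHO 24 h replicate 3 had 0.17 for Il1a (0.03). Among the low values, Il1a read -1.62 in CHO 6 h replicate 1 (lowest kept rat -0.48), -1.49 in HF 24 h replicate 3 (-1.20) and 0.27 in CHO 1 h replicate 3 (0.93). The other 8 low values lay closer to the lowest kept rat. The mean Cxcl2 change of the 3 diets at 6 h, 0.24 as reported, was 0.35 with all marked rats included (limma adjusted p = 0.0154).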

How the results depend on the processing

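Over 260 member results and 4344 alternative values, 4227 kept their side of the threshold, 64 lost a call, 53 gained one and 0 called values changed sign. The sign of values called in neither fit was not compared. Counts of called members that moved by over 1.5 times follow, and the cause was not tested beyond the fewer rats that some settings hold. Leaving out each rat in turn gave 3 to 5 members for HF and for CHO at 1 h (reported 5), 1 to 2 for EtOH at 24 h (reported 3), 1 to 4 for CHO at 24 h (reported 2), 0 to 1 for EtOH minus HF at 24 h (reported 0), 3 to 6 for 24 h minus 6 h (reported 6) and 1 to 2 for each EtOH comparison of control livers (reported 1). Within scan day 8 the CHO count at 1 h was 1, within scan day 1 EtOH minus CHO at 6 h gave 3, and within scan day 4 EtOH at 24 h gave 1 and EtOH minus HF gave 1. Array weights gave 1 for EtOH and 1 for CHO at 24 h. For control livers, EtOH minus HF gave 2 after quantile normalisation and 2 without dim genes, no scan-day block gave 2 for each EtOH comparison, EtOH minus CHO gave 0 within the 6 h and 24 h cohorts, and EtOH minus HF gave 0 within each cohort. Over all genes, counts that moved by over 1.5 times did so in these ranges. In control livers they were 135 to 874 for EtOH minus CHO (1713 reported), 225 to 806 for EtOH minus HF (1953) and 0 to 51 for HF minus CHO (24). At 1 h they were 163 for the mean of diets within scan day 8 (1494 reported), 224 to 731 for EtOH (427), 99 to 476 for HF (307) and 53 to 587 for CHO (1.85% of genes reported). At 6 h they were 1214 to 1706 for HF (2800), 73 to 459 for EtOH minus CHO (273) and 70 to 603 for EtOH minus HF (297). At 24 h they were 2283 for the mean within scan day 4 (4941), 686 to 1153 for EtOH (2058), 1578 for HF (3614), 1370 to 1415 for CHO (2416), 171 to 218 for EtOH minus CHO (426) and 129 to 475 for EtOH minus HF (725). Comparisons of diets reported at 0 genes reached at most 2.

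Without the animal block (no replicate block, arrays not paired by rat) the 24 h minus 6 h count was 3 and the EtOH count at 24 h was 1. Same-numbered rats of a cohort carry neighbouring animal ids, and the labels used here do not say whether they were matched. Deviations of changes in same-numbered rats correlated by -0.125 to 0.216 (21 pairs, median 0.016). Rats with different numbers gave -0.277 to 0.29 (59 pairs). For control levels the same-numbered range was -0.228 to 0.288 (25 pairs). With 2 to 4 rats per group, these correlations cannot decide whether rats were matched. A block on cohort and number gave 2 members for EtOH minus CHO in control livers, Il1rn (0.63) beside Nfkbiz. Fits within other scan days could not be made, because those days hold too few rats.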
